A study of Mus musculus with 2 samples.

Results

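Cxcl1, Cxcl2 and Cxcl3, a trio of chemokines that draw neutrophils, and Cxcr2, the receptor they share, were followed through a mouse tumour infiltrate as 4 of the 32285 genes counted. They were taken by gene symbol, whatever their values, and were read in neutrophils, monocytes, macrophages and dendritic cells. MFC cells, a mouse forestomach carcinoma line, had been placed under the skin of wild type BALB/c mice, and leukocytes carrying the surface protein CD45 were sorted from the digested tumours. Droplet libraries were made for 2 groups, 1 library each: a control that received PBS, and a treated group that received thonzonium bromide, a quaternary ammonium detergent, at 50 mg/kg every other day from day 6. All mice carried the tumour and were killed on day 10. Both samples carry the same text on dosing, so the groups rest on the treatment label. How many mice were pooled in a library is not stated, and a transplanted line under the skin is not a tumour in its tissue of origin. With 1 library per group no difference between the groups could be tested: each 95% interval covers counting error only, and values describe these 2 libraries.

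CXCR2 is a G protein-coupled receptor on the neutrophil surface. Its ligands are small secreted CXC chemokines that carry the ELR motif, and a gradient of them guides neutrophils out of the blood and into inflamed tissue or tumours. Macrophages, monocytes, stromal cells and neutrophils themselves can make the ligands, usually after signals that activate the transcription factor NF-κB, so neutrophils already in a tissue can call in more.

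In GENCODE M21, on the GRCm38 (mm10) build, all 4 genes are protein-coding, lie on the forward strand and overlap no other annotated gene. Cxcl3 (ENSMUSG00000029379) lies at chr5:90786103-90789600, Cxcl1 (ENSMUSG00000029380) at chr5:90891241-90893115 and Cxcl2 (ENSMUSG00000058427) at chr5:90903871-90905938, so the ligands sit in 1 cluster, whereas Cxcr2 (ENSMUSG00000026180) lies at chr1:74153989-74161246. The promoter stretches are shown because the longest run that the ligands share before their starts resembles a site for NF-κB. Each covers positions -150 to -31 relative to the RefSeq start (GRCm38.p6, forward strand): Cxcl1 at chr5:90891095-90891214, Cxcl2 at chr5:90903749-90903868, Cxcl3 at chr5:90785951-90786070 and Cxcr2 at chr1:74153844-74153963. The capitals mark that shared run, GGGAATTTCCC.
Cxcl1: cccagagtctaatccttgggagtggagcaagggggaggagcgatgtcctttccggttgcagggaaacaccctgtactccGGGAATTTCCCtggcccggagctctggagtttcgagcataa
Cxcl2: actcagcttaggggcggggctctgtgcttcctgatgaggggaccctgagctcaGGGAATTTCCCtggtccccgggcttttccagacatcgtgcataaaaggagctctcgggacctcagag
Cxcl3: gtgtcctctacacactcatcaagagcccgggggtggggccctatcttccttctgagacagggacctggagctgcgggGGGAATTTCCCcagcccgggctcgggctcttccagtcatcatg
Cxcr2: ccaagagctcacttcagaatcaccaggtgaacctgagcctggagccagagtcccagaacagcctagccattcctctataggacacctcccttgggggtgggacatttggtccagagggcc

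The run began at -71 in Cxcl1, -97 in Cxcl2 and -73 in Cxcl3, each on the gene's own strand. Its presence in the 3 ligands follows from how it was chosen. Among 32851 RefSeq windows of 300 bases (250 before to 50 after the start), 14 (0.0426%) held it on either strand, the ligands' windows included, and that of Cxcr2 did not. A match describes letters, not binding. The transcripts of Cxcl2 and Cxcl3 share 161 runs of 31 bases, while no other pair of the 4 genes shares any. The main spliced transcript of each gene holds 80 of these runs. In that of Cxcl2 they end 939 bases before the 3′ end, and in that of Cxcl3 850 bases before it. The kit tags molecules near the 3′ end, so in these transcripts the runs lie away from where most tags fall. Reads inside them could still be assigned to either gene, and the shared runs of other transcripts were not placed.

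The libraries held 7803 control and 6724 treated barcodes with 46348444 and 52973138 unique molecular identifiers (UMIs). Filters kept 6419 and 5833 cells, with medians of 4300 and 7259 UMIs, so the treated library was deeper per cell. Marker gates that used none of the 4 genes held 127 control and 192 treated neutrophils, 285 and 713 monocytes, 299 and 448 macrophages, and 129 and 145 dendritic cells, and 2095 and 1491 cells passed no gate. A gene kept out of the gates followed their names: Csf3r, the G-CSF receptor of neutrophils, was at 726 (control) and 823 (treated) counts per 1000000 UMIs of the class (CPM) in the neutrophil gate, at 75.1 and 93.8 in monocytes and at 3.77 and 6.08 in dendritic cells. Where values come in pairs, the control is first. The libraries shared 14 barcodes, 9 of them kept in both and none of those in these 4 classes in both.

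Cxcl2, the most abundant of the ligands in these cells, was above all a neutrophil transcript. Control neutrophils stood at 35519 CPM (34948 to 36096) and treated ones at 30031 CPM (29674 to 30392), which is 3.55% and 3.00% of all UMIs of the class. Macrophages followed at 1008 (962 to 1057) and 787 (762 to 814) CPM, then monocytes at 414 (385 to 444) and 636 (616 to 655) CPM, with no overlap between neighbours in this order in either library. The neutrophil level was 35.2-fold (33.5 to 37.0) that of control macrophages and 38.1-fold (36.8 to 39.5) that of treated ones. It was 85.8-fold (79.8 to 92.5) that of control monocytes and 47.3-fold (45.7 to 48.8) that of treated ones. Dendritic cells came last with 10.5 (5.77 to 17.7) and 22.1 (15.8 to 30.1) CPM, from 14 and 40 UMIs.

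**Figure D1:**
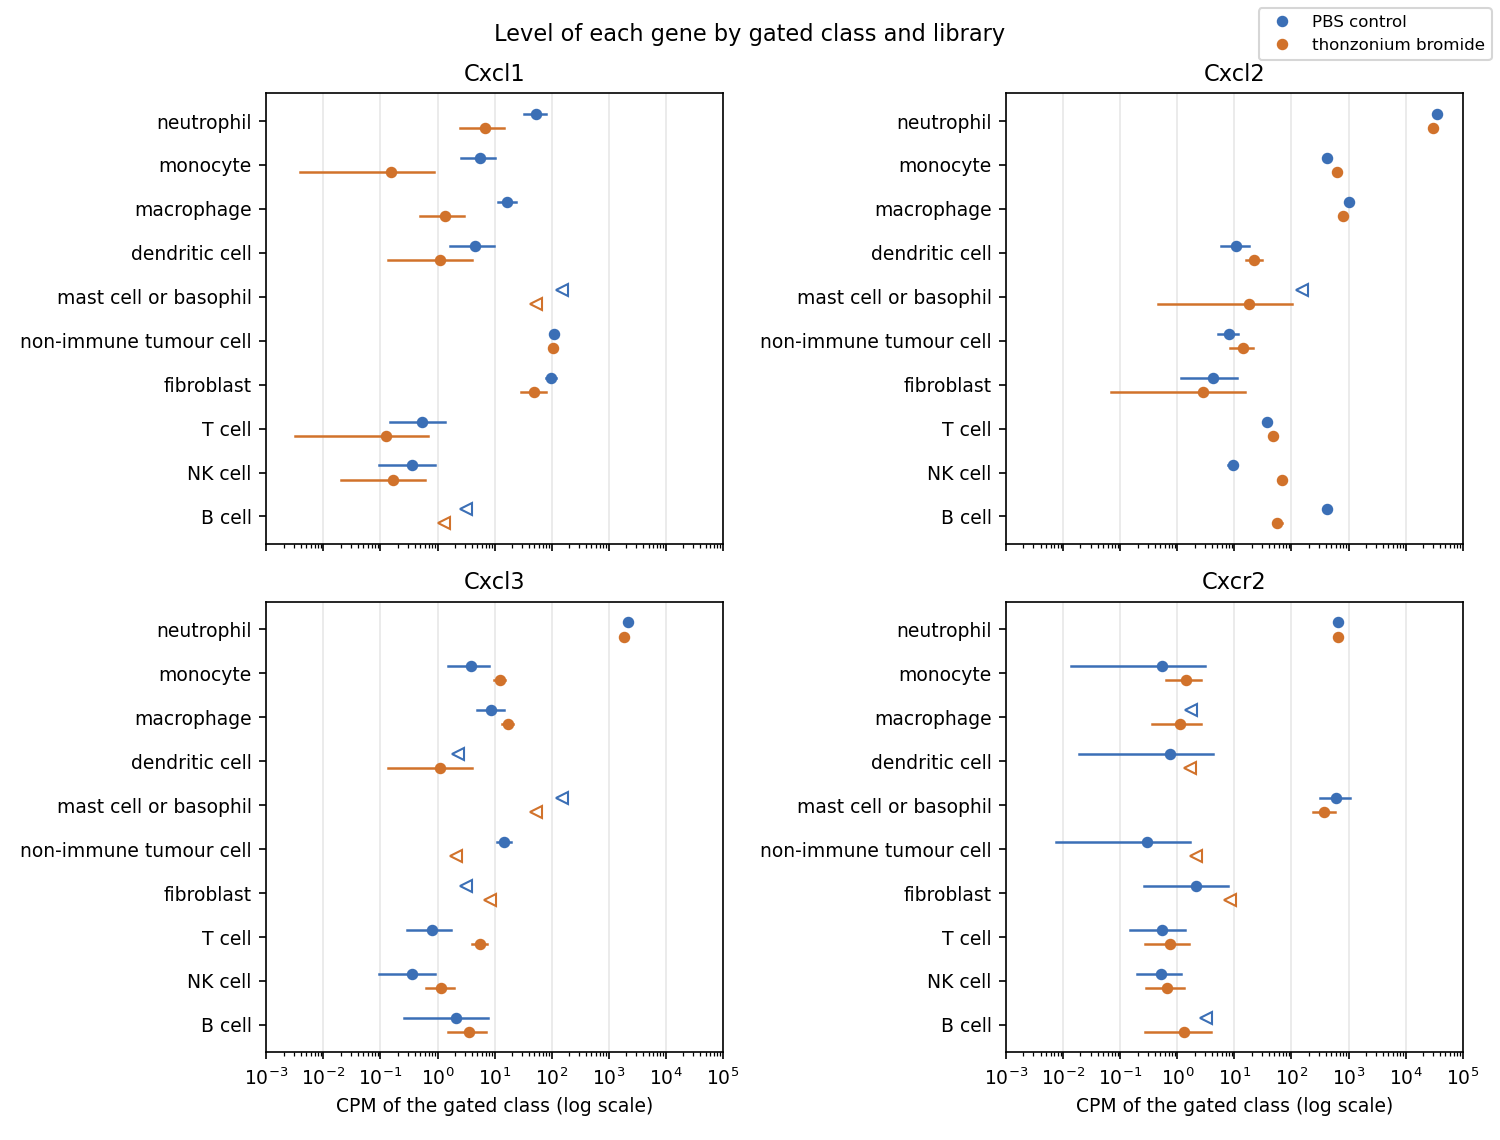
CPM (log scale) of the 4 genes in gated classes of the PBS control (blue) and thonzonium bromide (orange) libraries; points are UMIs of the class summed, lines are exact Poisson 95% intervals for counting error, and open arrowheads mark classes with no UMI, at the limit a count of 0 allows (3 UMIs). Cxcl2, Cxcl3 and Cxcr2 were higher in neutrophils than in monocytes, macrophages and dendritic cells of both libraries, and Cxcl1 in non-immune tumour cells was at 108 and 107 CPM.

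Lymphocytes gave the background. After each cell was thinned to 1000 UMIs, 1.73% of control B cells and 3.66% of treated ones held a Cxcl2 UMI (median depths before thinning 3858 and 3712 UMIs), as did 2.08% and 3.88% of T cells and 1.41% and 2.66% of NK cells. In dendritic cells it was found in 1 of 125 control cells (interval 0.0203 to 4.38%) and in 4.14% (1.53 to 8.79) of treated ones, which did not stand apart from B cells. Monocytes, at 11.3% (7.74 to 15.7) and 16.1% (13.4 to 19.1), and macrophages, at 16.9% (12.4 to 22.2) and 20.5% (16.7 to 24.6), stood above the lymphocytes in both libraries. Erythroid-gated cells held a Cxcl2 UMI in 7.98% (5.92 to 10.5) and 10.6% (5.40 to 18.1). Those intervals overlapped monocytes in both libraries and macrophages in the treated one. Without thinning the shares were 20.4% and 34.5% in monocytes and 23.4% and 41.7% in macrophages. In neutrophils 89.3% (81.7 to 94.5) of control and 90.8% (85.7 to 94.6) of treated cells held a Cxcl2 UMI at that depth, against median unthinned depths of 2876 and 3724.5 UMIs. Thinning left out 24 control and 7 treated neutrophils.

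Some lymphocyte levels rested on single cells. Of the 405 control B cell UMIs of Cxcl2, 398 lay in 1 cell, and the B cell level was 426 CPM with it and 7.43 without it. Of the 146 in treated plasmacytoid dendritic cells, 135 lay in 1 cell. The ratio of Cxcl2 to a neutrophil gene differed between classes. For each 100 Cxcl2 UMIs, neutrophils held 118 and 152 UMIs of S100a9, a calprotectin subunit that neutrophils make in bulk, whereas control and treated monocytes held 1.85 and 3.67 and macrophages 0.633 and 7.57. B cells held 19.3 and 62.8, T cells 19.0 and 37.0, NK cells 54.7 and 43.8, and erythroid-gated cells 372 and 98.3. The control B cell ratio rests on the 1 cell that held 398 of the 405 Cxcl2 UMIs. In T cells 1 cell held 139 of 279 control UMIs and 1 cell 136 of 386 treated ones. In treated NK cells 1 cell held 251 of 817. S100a8, the partner subunit, did not show the same contrast in monocytes. Neutrophils held 77.1 and 104 S100a8 UMIs per 100 of Cxcl2, monocytes 12.98 and 43.5, and macrophages 1.27 and 8.09. The monocyte value lay among those of lymphocytes in both libraries. Control lymphocytes were at 10.4 in T cells, 25.5 in NK cells and 6.42 in B cells. Treated ones were at 35.8 in T cells, 37.8 in NK cells and 59.7 in B cells.

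**Figure D2:**
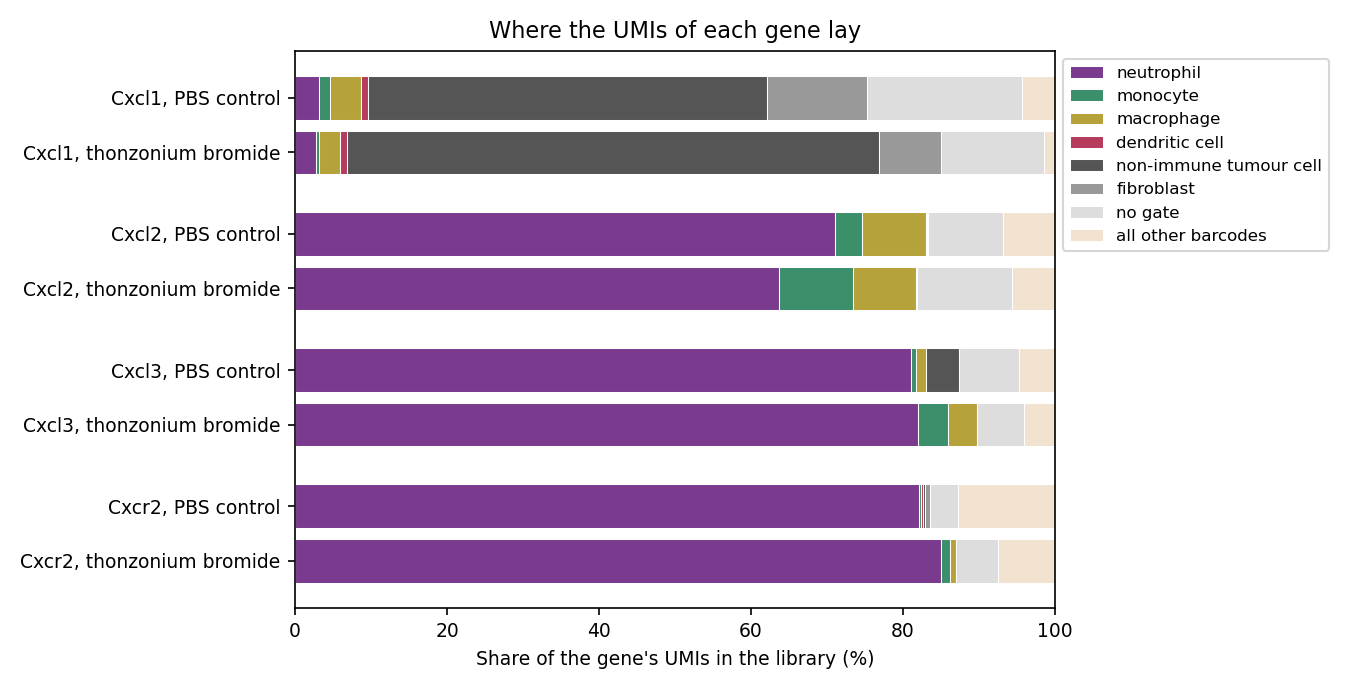
Share (%) of all UMIs of each gene in a library that lay in each gated class, in kept cells with no gate and in all other barcodes, filtered ones included; each bar is 1 gene in 1 library. Neutrophils held 63.7% to 85.0% of the UMIs of Cxcl2, Cxcl3 and Cxcr2, and non-immune tumour cells held 52.5% and 70.0% of those of Cxcl1.

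Counted over whole libraries, 20796 control and 42264 treated UMIs belonged to Cxcl2. Neutrophils, only 1.98% and 3.29% of kept cells, held 71.0% and 63.7% of them. Macrophages held 8.36% and 8.28%, monocytes 3.63% and 9.73%, dendritic cells 0.0673% and 0.0946%, and cells with no gate 9.94% and 12.5%. Together the 4 classes accounted for 83.1% and 81.9%.

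Between the libraries, 3 of the 4 genes had the 50 UMIs needed in neutrophils, and none of them was 2-fold higher or lower in the treated library, where 5.06% of 2726 genes were at least 2-fold higher and 3.04% at least 2-fold lower. Cxcl2 summed over neutrophils was 0.846 times the control (0.829 to 0.863). Cell by cell the picture turned: the share of a neutrophil's UMIs taken by Cxcl2 ran from 0 to 19.9% in control cells (median 1.89%) and from 0 to 12.1% in treated cells (median 3.78%). The ratio was 1.19 with each cell weighted alike and 1.01 with each cell thinned to 1000 UMIs. The direction of the Cxcl2 difference in neutrophils therefore depended on whether deep cells counted for more.

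**Figure D3:**
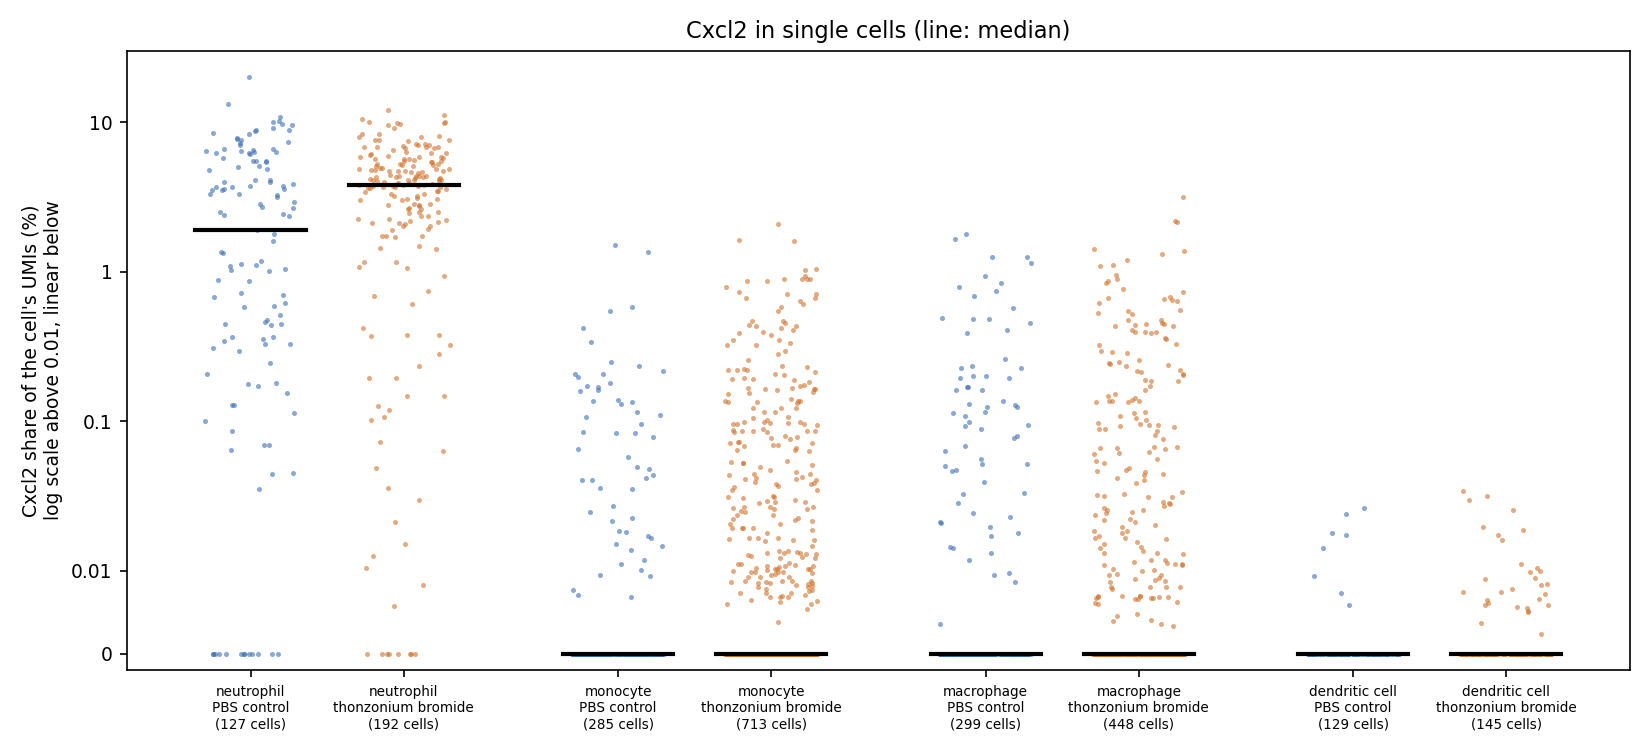
Cxcl2 as a share (%) of each cell's UMIs in 4 gated classes of the PBS control (blue) and thonzonium bromide (orange) libraries; each point is a cell, the line is the median, and the axis is logarithmic above 0.01% and linear below. Neutrophil medians were 1.89% and 3.78%, and the medians of the other classes were 0.

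The per-cell shares lay apart at the lower end and close at the upper end. The 25th percentile was 0.316% and 1.74%, while the 75th was 5.47% and 5.40%. Cxcl2 reached 1% of UMIs in 75 of 127 control neutrophils (59.1%) and 154 of 192 treated ones (80.2%). The 52 control cells under 1% had a median of 1152 UMIs, and 11 of them held over 1% haemoglobin UMIs, against none of the 75 others. The 38 treated cells under 1% had a median of 6132 UMIs and 9321 CPM of Lyz2, the lysozyme of monocytes and macrophages, against 797 CPM in the treated cells at or over 1%. In both libraries the cells under 1% held less Csf3r (451 against 859 CPM, and 318 against 1090 CPM). This split at 1% was chosen after the values had been seen. The part of these cells in the difference was not tested. The gate's own edge showed the same slope: neutrophils that passed it by less than 0.1 held 13386 and 6141 CPM of Cxcl2 (9 and 10 cells), and cells that missed it by less than 0.1 held 2198 and 2590 (11 and 14 cells).

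In monocytes and macrophages the Cxcl2 transcripts sat in few cells. The 10% of monocytes with the most Cxcl2 held 94.4% and 86.9% of its UMIs, and the top 10% of macrophages held 93.4% and 80.3%, against 40.3% and 27.4% in neutrophils. Cells with 10 or more Cxcl2 UMIs numbered 20 of 285 control and 83 of 713 treated monocytes, and 33 of 299 and 71 of 448 macrophages. The cut was on raw UMIs, which deeper cells reach more readily. Median depths of these Cxcl2-rich monocytes were 10092.5 UMIs against 5735 in the rest of the control class, and 11478 against 8537.5 in the treated one. For macrophages they were 10137 against 3008.5 and 9522 against 9828. The Cxcl2-rich cells also differed from the rest of their class in other genes, and the part of depth in this was not tested. In macrophages they held less of the complement gene C1qa, at 1551 against 2281 CPM in the control and 1389 against 2141 CPM in treated cells. Treated Cxcl2-rich macrophages held more of the neutrophil genes S100a9 (301 against 14.4 CPM), S100a8 (243 against 30.2) and Retnlg (8.57 against 0.534), whereas in control ones S100a9 was at 5.57 against 6.59 CPM and S100a8 at 2.78 against 15.4. In monocytes S100a8 was higher in the Cxcl2-rich cells of both libraries, at 110.0 against 46.8 CPM and 495 against 236 CPM, with S100a9 at 0 against 8.62 and 28.6 against 22.3. The part of neutrophil transcripts in these cells' Cxcl2 was not tested. The Cxcl2-rich cells held more Nfkbia, an inhibitor of NF-κB that NF-κB itself induces, at 1949 and 1600 CPM in macrophages against 541 and 494 CPM in the macrophages with fewer Cxcl2 UMIs. This grouping was chosen after the values had been seen.

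Over both libraries, 2 of the 4 genes reached 50 UMIs in monocytes. Cxcl2 was 1.54 times the control level in treated monocytes (1.42 to 1.66), and Cxcl3 alone was over 2-fold higher, where 1.05% of 8094 genes were at least 2-fold higher and 0.988% at least 2-fold lower. With stricter gates the Cxcl2 ratio in monocytes was 0.851, from 121 control and 337 treated cells. Without the single cell with the most Cxcl2 UMIs in each library it was 1.97. Split by subset after the values had been seen, Cxcl2 stood at 533 and 779 CPM in classical monocytes, the subset higher in Ly6c2, and at 136 and 261 CPM in nonclassical ones, the subset higher in Ace. Both subsets were higher in the treated library. Over the 16 neutrophil markers the median summed level was 255 CPM in control monocytes and 385 CPM in treated ones, and their part in the difference was not tested.

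In macrophages the Cxcl2 ratio was 0.781 (0.737 to 0.828), and neither of the 2 genes with 50 UMIs was past 2-fold, beside 0.973% of 7916 genes higher and 1.02% lower. As in neutrophils, the direction turned with the weighting: 1.48 with each cell alike and 1.31 after thinning. Macrophage depth differed widely, with medians of 3917 control and 9736.5 treated UMIs. In dendritic cells Cxcl2, the 1 gene measured there, was 2.10 times the control (1.12 to 4.17), beside 0.556% of 6112 genes at least 2-fold higher and 0.736% lower, on shares that did not stand apart from B cells.

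**Figure D4:**
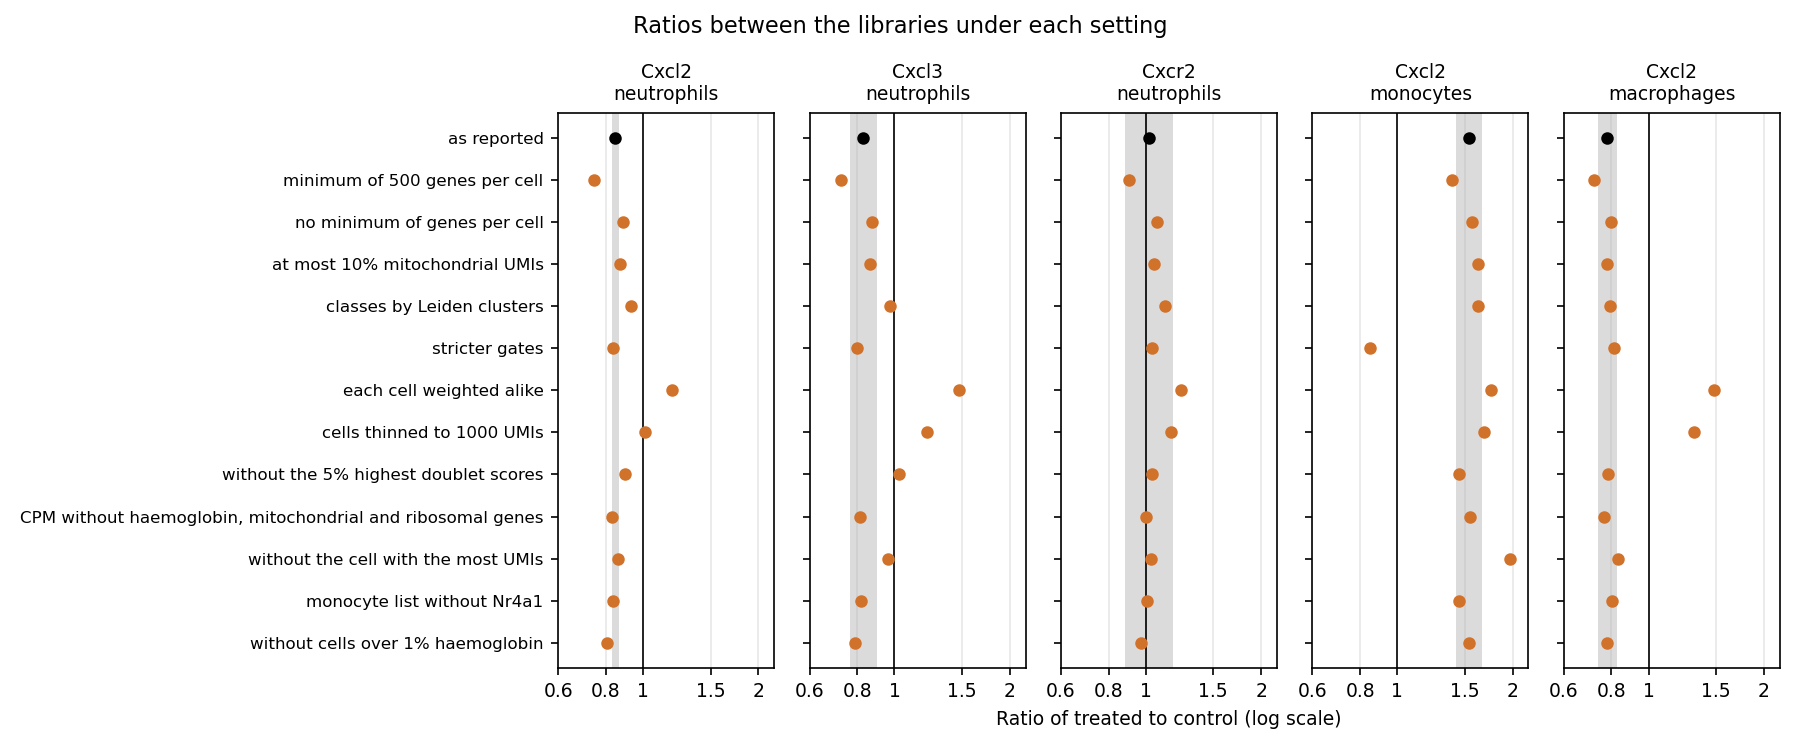
Ratio of treated to control (log scale) for Cxcl2, Cxcl3 and Cxcr2 in gated classes under each processing setting; the black point is the value as reported, the grey band its 95% interval for counting error, orange points the alternatives and the vertical line a ratio of 1. Cxcl2 in neutrophils and macrophages crossed 1 when cells were weighted alike or thinned, and in monocytes with stricter gates.

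Cxcl3, the ligand made beside Cxcl2, was closer to a neutrophil-restricted transcript. Neutrophils held 916 and 1639 UMIs, or 2202 CPM (2062 to 2350) and 1827 CPM (1739 to 1918), and 81.1% and 82.0% of the 1130 and 2000 Cxcl3 UMIs of the libraries. Macrophages held 8.70 (4.87 to 14.3) and 16.9 (13.3 to 21.2) CPM and monocytes 3.84 (1.54 to 7.90) and 12.4 (9.80 to 15.4) CPM, with overlapping intervals in each library. Dendritic cells held 0 and 2 UMIs. The neutrophil level was 253-fold (153 to 454) that of control macrophages and 108-fold (85.8 to 138) that of treated ones. Outside these classes, 50 control UMIs lay in non-immune tumour cells, 39 of them in 1 cell.

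Per 100 Cxcl2 UMIs, neutrophils held 6.20 (5.79 to 6.63) and 6.08 (5.78 to 6.39) Cxcl3 UMIs. Monocytes held 0.927 (0.371 to 1.92) and 1.95 (1.54 to 2.43), and macrophages 0.863 (0.482 to 1.43) and 2.14 (1.68 to 2.69). Each molecule is tagged once near its 3′ end, so these UMI counts need no division by length. With all cells counted, the ratio of the ligands in neutrophils lay within counting error between the libraries. It lay above that of the other phagocytes in both. A single control neutrophil held 220 of the 916 Cxcl3 UMIs, and a single treated one 193 of 1639. The ratio of the ligands without these cells was not computed.

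Unlike Cxcl2, Cxcl3 reached a minority of neutrophils. At 1000 UMIs a cell, 30.1% (21.5 to 39.9) of control and 35.7% (28.8 to 43.0) of treated neutrophils held it, against 0% and 0.385% of B cells, where the count of 0 allows up to 1.30% at that depth. At full depth 0.851% and 1.15% of B cells held one. In monocytes the thinned shares were 0% (a count that allows up to 1.13% at that depth) and 0.585% (0.160 to 1.49), with 1.05% and 2.38% at full depth, and in macrophages 1.23% (0.255 to 3.57) and 1.16% (0.379 to 2.69). All 31 control neutrophils with Cxcl3 also held Cxcl2, as did 64 of 66 treated ones. Cxcl2 was also in 84.7% of control and 87.4% of treated neutrophils without Cxcl3. Both ligands were found in 30.1% (21.5 to 39.9) of control and 34.6% (27.8 to 41.9) of treated neutrophils. The products of the separate shares, 26.9% and 32.4%, lay within these intervals. A single control neutrophil held 220 Cxcl3 UMIs, 24.0% of the class.

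That cell bears on the ratio, which was 0.830 (0.765 to 0.900) with all neutrophils and 0.959 without the top cell of each library. It was 1.47 with each cell weighted alike, 1.21 after thinning and 1.03 without the cells of highest doublet score, so the libraries showed no stable direction. At the low levels of the other phagocytes the treated values were higher: 3.22 times (1.49 to 8.27) in monocytes, from 7 and 80 UMIs, and 1.94 times (1.10 to 3.64) in macrophages, from 15 and 75. Among lymphocytes, the background, T cells were at 6.91 times (2.94 to 19.8), from 6 and 45 UMIs with 36 of the 45 in 1 cell. Without the top cell of each library T cells were at 0.672 and 1.12 CPM. NK cells were at 3.28 times (1.03 to 13.7), from 4 and 14 UMIs. B cells were at 1.67 times (0.334 to 16.2), from 2 and 8 UMIs. Erythroid-gated cells were at 1.57 times (0.686 to 3.31) and cells with no gate at 1.07 times (0.810 to 1.43). Macrophages held 11 and 265 UMIs of S100a9 beside their Cxcl3. Whether the higher Cxcl3 was particular to phagocytes was not tested, nor was the part of the background in it. With Leiden clusters in place of gates the macrophage ratio was 1.03, and with stricter gates the monocyte ratio was 1.07.

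Cxcl1, the ligand usually linked to stroma and epithelium, was nearly absent from the 4 classes. They held 67 of 701 control UMIs (9.56%) and 15 of 220 treated UMIs (6.82%). Non-immune tumour cells were gated by keratins, Epcam, Cald1 and other genes of a list for carcinoma or other non-immune cells. They held 368 and 154 UMIs, 52.5% and 70.0% of the library, at 108 CPM (97.6 to 120.0) and 107 CPM (90.9 to 125). Ptprc, which encodes CD45, was at 22.1 and 205 CPM in this gate. A single treated cell held 78 of the 154 Cxcl1 UMIs, and without the top cell of each library the Cxcl1 levels were 89.5 and 56.1 CPM. Fibroblast-gated cells stood at 99.1 (80.0 to 121) and 49.6 (29.4 to 78.4) CPM, from 19 and 5 cells, and 49 of the 93 control UMIs lay in 1 cell. A sort for CD45 should remove both, so what remained of them need not stand for those cells in the tumour.

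Among leukocytes, Cxcl1 UMIs lay in a handful of cells. Neutrophils held 22 control UMIs in 4 cells, 12 of them in 1 cell, and 6 treated UMIs in 3 cells, or 52.9 (33.1 to 80.1) and 6.69 (2.45 to 14.6) CPM. Macrophages held 29 UMIs in 6 cells and 6 in 2 cells, or 16.8 (11.3 to 24.2) and 1.35 (0.496 to 2.94) CPM. Monocytes held 10 and 1 UMIs, dendritic cells 6 and 2, and B cells 0 and 0. All 4 classes were lower in the treated library, the dendritic cells with an interval of the ratio across 1 (0.0241 to 1.37), but none reached 50 UMIs, and after thinning the neutrophil ratio was 1.11 from 1 control and 2 treated cells with a UMI. Cxcl1 in the non-immune tumour cells was 0.989 times the control (0.814 to 1.197) with all cells.

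Cxcr2, the receptor, was, among these 4 classes, a neutrophil transcript. It stood at 649 CPM (574 to 731) in control and 661 CPM (609 to 716) in treated neutrophils, from 270 and 593 UMIs. They held 82.1% of the 329 control and 85.0% of the 698 treated Cxcr2 UMIs. Monocytes held 1 and 9 UMIs, macrophages 0 and 5, and dendritic cells 1 and 0, levels whose intervals overlapped those of T, NK and B cells. The neutrophil level was 475-fold (249 to 1045) that of treated monocytes and at least 373-fold that of control macrophages, where 3 UMIs stand in for the count of 0. After thinning no monocyte and no macrophage of either library held a Cxcr2 UMI, which allows up to 0.439% of treated monocytes and 0.698% of treated macrophages to hold one at that depth. At full depth 1.12% of treated monocytes (8 of 713) and 1.12% of treated macrophages (5 of 448) held one.

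The libraries differed little in neutrophil Cxcr2. The ratio was 1.02 (0.880 to 1.18) and ran from 0.903 to 1.24 over the alternatives, where 1.24 weighted each cell alike. At 1000 UMIs a cell, 38.8% (29.4 to 48.9) of control and 44.9% (37.6 to 52.3) of treated neutrophils held a Cxcr2 UMI. At full depth the shares were 55.1% and 72.9%, in libraries whose neutrophil depths also differed.

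Outside the 4 classes, Cxcr2 was highest in mast cells or basophils, which number few here. It was in 3 of the 4 control cells and 10 of the 12 treated ones, at 603 CPM (311 to 1053) and 378 CPM (234 to 578), from 12 and 21 UMIs. Of the 12 control UMIs, 7 lay in 1 cell, and the control level without it was 315 CPM. With all cells, the control interval held the neutrophil level, and the treated one lay below it. Cxcl2 in these cells was at 0 and 1 UMIs and Cxcl1 and Cxcl3 at 0, where a count of 0 allows up to 151 and 54.1 CPM, so lower levels of the ligands were not detectable.

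Within neutrophils, cells with and without a Cxcr2 UMI after thinning were set side by side. Cxcl2 stood at 39525 CPM in the 40 control cells with the receptor and 35429 CPM in the 63 without, and at 44723 and 31559 CPM in the 83 and 102 treated cells. Il1b, the inflammatory cytokine interleukin-1 beta, followed with 20075 against 10175 CPM and 23121 against 13873 CPM. Csf3r showed the same order, at 1025 against 524 CPM and 1518 against 912 CPM. Both a Cxcl2 and a Cxcr2 UMI were found in 36.9% (27.6 to 47.0) of control and 43.8% (36.5 to 51.3) of treated neutrophils. The products of the separate shares, 34.7% and 40.7%, lay within these intervals. Not all genes followed this order. Retnlg, a neutrophil gene, was at 1075 against 2016 CPM in control cells and at 2325 against 1990 CPM in treated ones, and Ccl3 at 6750 against 6889 and 4892 against 5510 CPM, with overlapping intervals except for Retnlg in the control. Cd274, which encodes PD-L1, had the opposite order, at 625 against 762 CPM and 747 against 1284 CPM, the first pair with overlapping intervals.

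The other ligands and receptors of this axis were scarce. Cxcl5, a ligand of epithelium and stroma, had 15 control and 5 treated UMIs, none of them in the 4 classes. Ppbp, a platelet-derived ligand, had 3 and 52 UMIs in kept cells, 50 of the latter in 5 treated macrophages and 46 of those in a pair of cells (26 and 20). Cxcr1, the sister receptor, had 16 and 30 UMIs, 13 and 28 of them in neutrophils.

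Genes that lie around the axis were read from lists. Of 22 inducers and early NF-κB genes, 20 were measured in neutrophils and none was past 2-fold, beside 5.06% of all genes higher and 3.04% lower, with a median log2 ratio of 0.15 beside 0.09 for all genes. Il1b was the most abundant at 12724 and 13887 CPM. Sod2, a mitochondrial superoxide dismutase, and Nfkb1, an NF-κB subunit, were at the high end (1.98 and 1.71 times), and Ccl3, an inflammatory chemokine, and Nfkbid, an NF-κB regulator, at the low end (0.606 and 0.654 times). In monocytes none of 19 measured members was past 2-fold, beside 1.05% of 8094 genes higher and 0.988% lower. Their median log2 ratio was 0.24 beside 0.01 for all genes. Tlr4, the receptor for bacterial lipopolysaccharide, and Ccl4, an inflammatory chemokine, led at 1.46 and 1.42 times, and Nfkbia and Nfkbiz, both NF-κB regulators, were lowest at 0.836 and 0.870. In macrophages none of 19 was past 2-fold, beside 0.973% of 7916 genes higher and 1.02% lower. The median log2 ratio there was 0.05 beside 0.02.

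Of the 7 other neutrophil chemoattractant receptors, 1 was past 2-fold in neutrophils: Ltb4r1, the leukotriene B4 receptor, at 79.3 and 160.5 CPM (2.02 times, 1.38 to 3.05), beside 5.06% of 2726 genes at least 2-fold higher. Fpr1, the formyl peptide receptor, was lowest at 0.760 times (0.595 to 0.974). Among 7 measured genes of retention and growth, Itgb2, the beta chain of the leukocyte integrins, was the 1 gene past 2-fold (2.01 times, 1.52 to 2.68), beside the same 5.06%, and Cxcr4, the bone marrow retention receptor, 0.862 times (0.673 to 1.11). None of 8 measured genes of signalling after CXCR2 was past 2-fold: Fgr, a Src-family kinase, stood at 1.69 times and Dock2, a Rac activator, at 0.695 times. Granule genes of immature neutrophils were near their limit, with 2 of 9 measured, Lcn2 (1.09 times) and Mmp8 (1.01 times). Of 11 measured tumour neutrophil genes 1 was past 2-fold: Spp1, which encodes osteopontin, stood at 2260 and 544 CPM (0.241 times, 0.215 to 0.269), beside 3.04% of 2726 genes at least 2-fold lower.

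Genes with the most similar levels were sought over 8 gated classes in both libraries (16 points, Pearson's r of log2(CPM + 1), 10817 genes). The points share libraries and depth, so r is a description. For Cxcl2 they were Acod1, which makes itaconate (0.98), Clec4d (0.97), Adipor1 (0.95), the lipopolysaccharide coreceptor Cd14 (0.94) and Hcar2 (0.94). For Cxcl3 they were Snai1 (0.98), Stfa2l1 (0.95), Adipor1 (0.94), Mirt2 (0.94) and Cxcr2 itself (0.94), and for Cxcr2 Stfa2l1 (0.99), Mirt2 (0.97), Snai1 (0.97), Cstdc4 (0.96) and the gelatinase Mmp9 (0.95). Stfa2l1 is one of the neutrophil gate's own markers, and Mmp9 stands in the osteoclast-type list. Cxcl1 stood apart, with Col4a2 (0.88), Gdf15 (0.87), Isg15 (0.79), Cav1 (0.79) and Lekr1 (0.79), over classes that left out the non-immune tumour and fibroblast gates, which held most of it but too few cells.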

How the data were processed

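The deposited files hold UMI counts, whole numbers per gene and barcode, written by Cell Ranger 6.1.2 per the file headers. Further names in the submitters' processing notes are Seurat 3.0, R 3.5.3 and mm10. The aligner's settings are not given in the sources used here. Barcodes under 200 genes or over 20% mitochondrial UMIs were left out. A cell took the class of its leading marker list (14 lists, 149 genes, mean of z-scores clipped at 5) where at least 3 markers had a UMI and the lead was at least 0.3. Scrublet called 0 and 1 cells, too few to count as a working call, so doublets stayed in. Counts were summed per class and scaled to CPM, with exact Poisson, conditional binomial and Clopper-Pearson 95% intervals for counting error. Only the conditional binomial intervals were tried on simulated data. Those were independent Poisson counts, which lack the clumping of UMIs in single cells seen here, so they say nothing on its effect. Shares used cells thinned to 1000 UMIs (seed 1). Genes with at least 50 UMIs over both libraries were compared at 2-fold. The rule for naming pathway list genes allowed the gene with the most UMIs and up to 2 with the highest and lowest ratios. List genes given with a ratio were drawn from these, and not all of them are named. For each of the 4 genes it named the 5 most alike. A gene that this rule named is not reported here. The members and lists were chosen with earlier results of these data known. Python 3.11.15, numpy 2.4.6, scipy 1.17.1, scanpy 1.11.5 and leidenalg 0.10.2 were used.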

Additional observations from a re-analysis of the deposited data

Results flagged for a closer look

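The ratio of treated to control Cxcl2 lay on opposite sides of 1 in different cell classes: 1.54 in monocytes and 2.10 in dendritic cells, but 0.846 in neutrophils and 0.781 in macrophages. Cxcl3 did so too, with 3.22 in monocytes and 1.94 in macrophages against 0.830 in neutrophils. The differences between classes were not tested, since each group had 1 library, and some of these directions turned with the processing. Barcodes that the filters removed, which entered none of the comparisons, held Cxcl2 at 222 CPM in the treated library and at 101 CPM in the control.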

How the results depend on the processing

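For Cxcl2 the order of neutrophils, macrophages, monocytes and dendritic cells by CPM was the same in each library under all 12 alternatives. No intervals were computed for those levels, and the order was not compared for the other genes. The ratios of treated to control varied more. Of 12 alternatives, 10 left Cxcl2 in neutrophils below 1 (0.846 as reported). It was 0.744 with a minimum of 500 genes per cell, 0.886 with no minimum, 0.872 with at most 10% mitochondrial UMIs, 0.932 with Leiden clusters, 0.899 without the 5% of cells with the highest doublet scores and 0.806 without cells over 1% haemoglobin, and it turned to 1.19 with each cell weighted alike and 1.01 after thinning. In monocytes (1.54) it was 1.39 with 500 genes, 1.76 with each cell alike, 1.69 after thinning and 1.97 without the top cell, and turned to 0.851 with stricter gates. In macrophages (0.781) it was 0.719 with 500 genes and 0.833 without the top cell, and turned to 1.48 with each cell alike and 1.31 after thinning. Cxcr2 in neutrophils (1.02) was 1.24 with each cell alike. Cxcl3 in neutrophils (0.830) turned to 1.47 with each cell alike, 1.21 after thinning and 1.03 without the highest doublet scores, and Cxcl1 (0.126) turned to 1.11 after thinning. The causes were not tested. Cxcl3 in monocytes ran from 1.07 to 5.62 over 11 alternatives, and thinning gave no value there because the control held 0 UMIs. The alternatives without the top cell, without Nr4a1 in the monocyte list and without cells over 1% haemoglobin were chosen after seeing the data. No paired analysis was possible because each group has 1 library. Ratios of Cxcl1 in leukocytes rest on a few UMIs and have wide counting intervals.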

Other observations

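In the treated library 251 of the 817 Cxcl2 UMIs of NK cells lay in 1 cell. In T cells, 1 cell held 139 of 279 control UMIs and 1 cell 136 of 386 treated ones. A single treated plasmacytoid dendritic cell held all 11 Cxcr2 UMIs of its class.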
